A study of Mus musculus with 12 samples.

Results

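The comparison described here is that of irradiated with unirradiated lungs of mice fed flaxseed, across all microRNA assays of a quantitative PCR panel. Lungs of 3 irradiated flaxseed mice (mice 15, 17 and 18) were set against lungs of 3 unirradiated flaxseed mice (mice 11, 12 and 13). These 6 mice are part of a series of 12, in which 3 irradiated mice (7, 8 and 9) and 3 unirradiated mice (2, 4 and 5) on a control diet make up the other 2 groups. All were C57BL/6. Flaxseed mice ate a diet with 10% flaxseed for 21 days, and irradiated mice received 13.5 Gy and were killed 48 hours later. The labels give no age and no composition of the control diet. Of 762 assays listed, 312 microRNA assays gave a signal in at least 1 mouse and could be named, of which primer pool A held 194 and primer pool B 118. The pools are separate mixtures of primers, each used in its own reverse transcription and pre-amplification, and the last letter of an assay's name gives its pool.

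MicroRNAs are short RNAs cut from hairpin precursors. Each hairpin has 2 arms, and the product of either arm can be loaded into an Argonaute protein, which then represses messenger RNAs that pair with the seed, bases 2 to 8 from the 5′ end. MicroRNAs that share a seed form families, and neighbouring hairpins are often cut from the same primary transcript. In lung, miR-34 family members are known as targets of p53, which radiation activates, miR-21 as a microRNA induced in inflammation and fibrosis, and miR-29 family members as repressors of collagen messenger RNAs. RNA came from whole lung tissue, so fewer cells of a type and less of a microRNA per cell cannot be told apart.

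Most of the mature sequences below are of microRNAs that differ by 1 base or share a seed and gave different values. miR-21, miR-194 and miR-96, at the end, are given for assays undetected in some or all unirradiated flaxseed mice. All are RefSeq sequences of the build GRCm38.p6, printed 5′ to 3′ with the seed in capitals. Each was tied to an assay by the assay's name, not by its primers. Of the 296 assays tested, 164 had a mature sequence. Several of these are cut from more than 1 hairpin, and coordinates are given for a few with a single place in the table. miR-29c lies at chr1:195037600-195037621 (plus strand) and miR-29a at chr6:31062673-31062694 (minus strand). let-7e lies at chr17:17830366-17830387 (plus strand) and let-7a was found at chr13:48538239-48538260 (minus strand). miR-19a lies at chr14:115044048-115044070 (plus strand), and miR-25 at chr5:138165332-138165353 (minus strand).
miR-29c: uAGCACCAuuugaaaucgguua
miR-29a: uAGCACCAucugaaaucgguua
miR-29b: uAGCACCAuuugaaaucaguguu
let-7e: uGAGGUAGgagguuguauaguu
let-7c: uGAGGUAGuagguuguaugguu
let-7a: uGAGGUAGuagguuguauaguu
let-7b: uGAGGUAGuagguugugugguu
miR-19a: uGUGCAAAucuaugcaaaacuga
miR-19b: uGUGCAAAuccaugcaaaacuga
miR-25: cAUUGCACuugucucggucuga
miR-92: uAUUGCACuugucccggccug
miR-195: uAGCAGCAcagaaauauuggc
miR-16: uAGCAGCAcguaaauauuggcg
miR-21: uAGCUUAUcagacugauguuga
miR-194: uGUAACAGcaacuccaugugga
miR-96: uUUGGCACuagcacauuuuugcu

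Values are relative threshold cycles (Crt), the cycle at which a reaction crosses the threshold, so a lower Crt means more template. A reaction was taken as detected at a Crt below 28. Levels are on a log2 scale: the Crt was subtracted from the mouse's mean Crt over 260 microRNA assays detected in all 12 mice, so that 0 is the level of the average assay and a higher level means more RNA. Levels of different assays are not compared, since no source used here gives the assays' efficiencies. Only the summed marker lists below combine assays, as if their efficiencies were equal.

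Of the 3 unirradiated flaxseed mice, 2 stood apart from the other mice in mean Crt over both pools, before any scaling. Mean Crt was 19.98, 19.44 and 19.66 in irradiated mice 15, 17 and 18, against 20.42, 20.07 and 21.20 in unirradiated mice 11, 12 and 13, and 19.74 to 20.09 in the 6 control-diet mice. Mice 11 and 13 were thus later than all 10 other mice, and mouse 12 was not. In pool A alone, mouse 12 was also later than every mouse outside its group, with a mean Crt of 19.15 against 18.39 to 19.08. Mouse 13 was late in both pools, with mean Crts of 20.23 in pool A and 22.79 in pool B. Mouse 11 was late in pool A alone: its pool B mean exceeded its pool A mean by 1.78 cycles, against 2.37 to 2.81 cycles in the other 11 mice. The Crts of the irradiated flaxseed mice had 4 decimals in 48.0% to 50.0% of values and those of the unirradiated flaxseed mice in 2.25% to 2.89%, so the form of the deposited values differs along the 2 groups. On control diet this ran the other way, with 2.49% to 3.11% in irradiated and 42.1% to 44.6% in unirradiated mice. Whatever set that form and radiation cannot be told apart within either diet. A radiation difference that depends on diet follows the same pattern over the groups, so it cannot be told apart from that form either. Nothing in the labels says whether mice were irradiated or processed in batches.

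More microRNA assays were detected in the irradiated than in the unirradiated flaxseed lungs, in both primer pools, and none was detected in fewer. In pool A, 194, 194 and 193 of 194 assays were detected in irradiated mice 15, 17 and 18, against 178, 181 and 175 in unirradiated mice 11, 12 and 13. In pool B, 117, 118 and 118 of 118 assays were detected in the irradiated mice, against 113, 116 and 106 in the unirradiated mice. The groups did not overlap in either pool. The difference in means was 15.7 assays for pool A and 6.0 for pool B, each with an exact two-sided permutation p of 0.1, which is the smallest that 3 mice against 3 can give. On control diet the irradiated minus unirradiated difference was -1.0 assays in pool A (exact p = 0.5) and 0.0 in pool B (exact p = 1.0, n = 3 each).

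**Figure D1:**
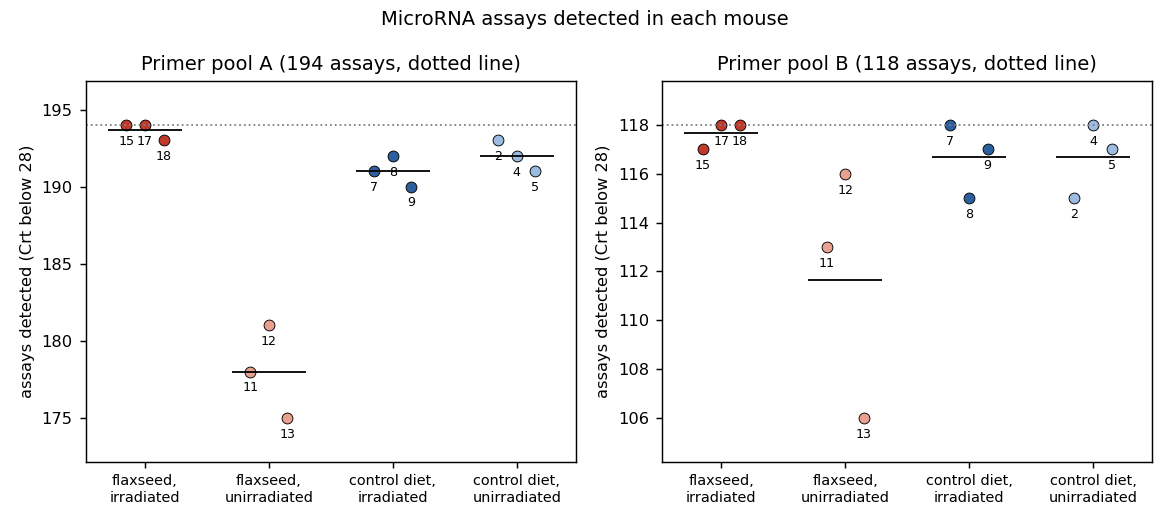
Number of microRNA assays detected at a Crt below 28 in each mouse (vertical axes, not starting at 0), by primer pool. Points are mice with their numbers, bars are group means and the dotted line is the number of assays. In pool A the irradiated flaxseed mice reach 193 to 194 assays and the unirradiated flaxseed mice 175 to 181, below all 9 other mice.

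Assay by assay, 29 of 194 pool A assays (14.9%) were detected in more irradiated than unirradiated flaxseed mice, and 16 of 118 pool B assays (13.6%), beside 14.4% of all 312 assays. No assay of either pool was detected in fewer. On control diet the gains were 3 for each pool (1.92% of 312), and the losses 6 for pool A and 4 for pool B (3.21%). The shares gained in the 2 pools were close to each other, but the steps differed. In pool A, 6 assays were detected in all 3 irradiated mice and in none of the unirradiated mice, and 6 more in 3 irradiated and 1 unirradiated mice. A further 16 were detected in 3 irradiated and 2 unirradiated mice, and miR-494 in 2 irradiated and 1 unirradiated mice. In pool B, 14 of the 16 were detected in 3 irradiated and 2 unirradiated mice, and miR-1930 in 3 irradiated and 1 unirradiated mice. The last, miR-1960, was detected in 2 irradiated mice and in none of the unirradiated mice.

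The 6 pool A assays detected in all 3 irradiated and in none of the unirradiated flaxseed mice were miR-194, miR-351 (assay 001067A), miR-382, miR-409-3p, miR-7 and miR-96. miR-194, a p53-linked microRNA with 1 of its 2 hairpins beside that of miR-192, had Crts of 17.70, 17.15 and 17.47 in mice 15, 17 and 18, and no Crt in mice 11, 12 and 13. Its Crt was 16.99 to 19.00 in the 6 control-diet mice, so an assay that was early in 9 mice gave no value in 3. miR-382, from the imprinted Dlk1-Dio3 locus, had Crts of 21.28, 20.80 and 21.05 in the irradiated mice and none in the unirradiated mice, and it also lacked a Crt in control-diet mice 4 and 5. miR-351 (assay 001067A) had Crts of 23.31, 22.68 and 22.58 in the irradiated mice and none in the unirradiated mice. A second assay of that name, 002063A, was measured in both groups, with a log2 difference of -0.65.

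miR-409-3p, also of the Dlk1-Dio3 locus, had Crts of 24.84, 23.76 and 25.54 in the irradiated mice and none in the unirradiated mice. miR-7 had Crts of 26.58, 24.48 and 24.97 in the irradiated mice, against no Crt in mouse 11 and values past the limit, 31.08 and 30.08, in mice 12 and 13. miR-96, known from sensory hair cells, had Crts of 26.02, 25.17 and 25.40 in the irradiated mice, against no Crt in mice 11 and 12 and 31.74 in mouse 13. miR-7 and miR-96 therefore gave a value past the limit in some unirradiated mice, which counts as undetected, while the other 4 gave no value there.

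The assays detected in all 3 irradiated mice and in 1 unirradiated mouse were miR-135a, miR-339-3p, miR-379, miR-384-5p, miR-501# and miR-682 in pool A and miR-1930 in pool B. miR-379, of the Dlk1-Dio3 locus, had Crts of 23.33, 22.88 and 22.93 in the irradiated mice, against no Crt in mouse 11, 29.68 in mouse 12 and 27.30 in mouse 13. miR-135a lay nearer the limit, with Crts of 26.12, 24.81 and 25.23 in the irradiated mice, against 29.72, 27.57 and 28.08 in mice 11, 12 and 13. In pool B, miR-1930 had Crts of 26.74, 25.48 and 26.86 in the irradiated mice, against 28.66, 26.16 and 28.23 in the unirradiated mice. For miR-135a and miR-1930 the gain was a shift across the limit, while miR-379 had no Crt at all in mouse 11.

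Most gained assays were also detected in all 6 control-diet mice, 23 of 29 in pool A and 12 of 16 in pool B, so the mice that lacked them were the unirradiated flaxseed mice. Among the gained pool A assays, 16 were undetected in mouse 11, 13 in mouse 12 and 19 in mouse 13. In pool B, 5 were undetected in mouse 11, 2 in mouse 12 and 12 in mouse 13, the mouse with the latest mean Crt. Without mouse 13 the gains came to 21 for pool A and 6 for pool B, and without mouse 11 to 24 and 13. Among the flaxseed mice, the values nearest to the limit of 28 on its inside were that of miR-29b-2# in mouse 13, which rounds to the limit itself, and miR-19a at 27.87 in mouse 11, and the nearest outside were miR-376b# at 28.01 and miR-9# at 28.04 in mouse 13.

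Of the 312 assays, 296 were detected in at least 2 mice of each of the 4 groups and were tested in a limma fit of all 12 mice, 181 in pool A and 115 in pool B. Between irradiated and unirradiated flaxseed mice, 43 of them differed at a Benjamini-Hochberg adjusted p under 0.05, which is 14.5% of those tested, and 96 (32.4%) were at an unadjusted p under 0.05. Of these, 25 rose (8.45%) and 18 fell (6.08%). All 25 that rose were pool A assays (13.8% of pool A), and of the 18 that fell 15 were in pool A (8.29% of pool A) and 3 in pool B (2.61% of pool B), where none rose (0%). On control diet the same fit called 0 assays (0% of 296, with 30, or 10.1%, at an unadjusted p under 0.05 and a smallest adjusted p of 0.15).

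The count rests on few mice and on the fit. It fell to 14, 9 or 13 when irradiated mouse 15, 17 or 18 was left out, to 28 when control-diet mouse 8 was left out, and to 25 when unirradiated mice 11 and 13 were left out together. A limma fit of the 6 flaxseed mice alone, in which the spread of the control-diet mice is not used, called 0 assays (96 at an unadjusted p under 0.05, smallest adjusted p 0.0583).

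The assays that rose did so by 0.93 to 7.16 on the log2 scale, with a median of 2.73, and those that fell by less, between 0.63 and 1.44. Over all 296 assays the median difference was -0.25. Levels of the 2 flaxseed groups did not overlap for any of the 43. Without overlap but counted over all assays, 46 were higher (15.5%) and 86 lower (29.1%) in irradiated mice, and on control diet 23 were higher (7.77%) and 18 lower (6.08%). The raw Crts of the 25 assays that rose were also separate, all earlier in irradiated mice, by 1.79 to 8.03 cycles. For the 18 that fell the unscaled mean Crts differed by -0.57 to 0.24 cycles (unirradiated minus irradiated), with separate groups for 2 of them, so these calls depend on the scaling. With no normalization 40 assays rose and 0 fell, and with scaling to control RNAs 19 rose and 1 fell.

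The largest difference was that of miR-29c, a member of the collagen-repressing miR-29 family. Its level was 4.51, 6.03 and 5.93 in irradiated mice 15, 17 and 18, against -5.55, -0.47 and 1.00 in unirradiated mice 11, 12 and 13. The lowest irradiated mouse lay above the highest unirradiated one, and the control-diet mice lay between 3.32 and 4.71. The difference was 7.16 ± 1.30 (SE, limma, adjusted p = 0.013), or 143.2-fold if template doubles in each cycle. It was 5.22 without mouse 11 and 8.50 without mouse 13.

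let-7e, of the let-7 family that represses growth genes, had levels of 4.11, 5.24 and 4.52 in the irradiated mice, against -6.58, -0.67 and 0.42 in the unirradiated mice. The groups were again separate, and mouse 11 was far below the others. The difference was 6.90 ± 1.41 (SE, limma, adjusted p = 0.0151), and 4.75 without mouse 11.

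miR-19a, from the growth-promoting miR-17 to miR-92 cluster, had levels of 0.84, 1.80 and 1.09 in the irradiated mice, against -7.46, -1.98 and -1.76 in the unirradiated mice. It rose by 4.97 ± 1.22 (SE, limma, adjusted p = 0.0247), and by 3.11 without mouse 11. miR-29b had levels of 1.27, 1.30 and 0.45 in the irradiated mice, against -7.39, -2.75 and -1.34 in the unirradiated mice. It rose by 4.83 ± 1.20 (SE, limma, adjusted p = 0.0247), and by 3.05 without mouse 11. In all of these mouse 11 was lowest, and mice 12 and 13 lay below every irradiated mouse as well.

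miR-24, abundant in many tissues, had levels of 7.75, 8.69 and 8.03 in the irradiated mice, against 0.12, 4.75 and 5.57 in the unirradiated mice (difference 4.67 ± 1.12 SE, and 2.99 without mouse 11). miR-30b had levels of 7.36, 8.35 and 7.62 in the irradiated mice, against 1.63, 4.96 and 5.47 in the unirradiated mice (difference 3.76 ± 0.87 SE). miR-195, of the miR-15 and miR-16 family that restrains the cell cycle, had levels of 5.00, 5.93 and 5.20 in the irradiated mice, against -0.02, 3.02 and 3.31 in the unirradiated mice (difference 3.27 ± 0.73 SE). All 3 were early assays, so the difference was not limited to reactions near the detection limit.

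Several assays that rose were undetected in mouse 11, with no Crt or one past the limit, and the fit then rests on 2 unirradiated mice. miR-25, with no Crt in mouse 11, had levels of -0.61, 0.92 and -0.56 in the irradiated mice, against -4.95 and -3.48 in mice 12 and 13 (difference 4.13 ± 0.54 SE, limma adjusted p = 0.00777). miR-34c, a p53 target found in ciliated cells, crossed at 31.31 in mouse 11 and had levels of 1.32, 2.94 and 2.01 in the irradiated mice, against -2.09 and -0.57 in mice 12 and 13 (difference 3.42 ± 0.57 SE, adjusted p = 0.013). miR-23b crossed at 28.87 in mouse 11 and had levels of 0.60, 2.57 and 0.95 in the irradiated mice, against -2.49 and -1.17 in mice 12 and 13 (difference 3.20 ± 0.57 SE, adjusted p = 0.013).

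miR-21 belongs to the same set: its Crt was 15.25, 13.76 and 14.56 in the irradiated mice, against none in mouse 11 and 17.28 and 17.93 in mice 12 and 13. On the level scale that is 4.73, 5.68 and 5.10 in the irradiated mice, against 2.79 and 3.27 in mice 12 and 13. It rose by 2.14 ± 0.40 (SE, limma, adjusted p = 0.013). An assay that crossed the threshold before cycle 18 in 11 mice thus gave no value in mouse 11. Its call was lost with undetected reactions set to 28. Over all alternatives its difference ranged from 1.88 to 5.67, and its limma adjusted p up to 0.124.

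Of the other assays that rose, miR-125a-5p differed by 3.05, let-7c by 2.92, miR-28 by 2.73, miR-193b by 2.70 and miR-429 by 2.66. Without mouse 11 these were 1.77, 1.74, 2.08, 1.76 and 1.75 in the same order. The rest, miR-467a, miR-21, miR-124a, miR-423-5p, miR-126#, miR-340-5p, miR-93, miR-365, miR-148a and miR-497, differed by 0.93 to 2.25. miR-126# is the other arm of the endothelial miR-126 hairpin. It had levels of 7.66, 8.80 and 7.65 in the irradiated mice, against 5.41, 6.51 and 6.41 in the unirradiated mice, while miR-126 itself differed by 0.62 (limma adjusted p = 0.16). The median over the 25 assays was 2.14 without mouse 11 and 3.35 without mouse 13. Without mouse 11, 20 of the 25 were still called, and without mouse 13, 22. miR-21, miR-23b, miR-25, miR-34c and miR-467a were undetected in mouse 11, so leaving it out could not change their differences. In the same way miR-423-5p had no Crt in mouse 13, and its difference rests on mice 11 and 12.

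Set against all 12 mice, the spread of these 25 assays was on the unirradiated side. In 22 of the 25 the 3 unirradiated flaxseed mice lay below all 9 other mice, which held for 26 of the 296 tested assays. The mean of the irradiated flaxseed mice lay within the range of the 6 control-diet mice for 18 of the 25, and for 214 of the 296. In 1 of the 25 the irradiated flaxseed mice lay above all 9 others. Relative to the mean of the irradiated flaxseed mice, the median over these assays was -4.54 in mouse 11 (20 assays detected), -2.36 in mouse 12 and -1.89 in mouse 13 (24 assays detected). The same levels chose these assays, so the counts describe them and test nothing.

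Members of a seed family gave different values. Of 12 seed groups with at least 3 tested assays, 8 held an assay that rose, and in none had all members risen. These 8 held 37 assays, of which 11 rose, beside 8.45% of all tested assays, but the groups were picked for holding such an assay. miR-29a differs from miR-29c by U10C (position counted from the 5′ end, miR-29c base first). miR-29a had levels of 6.38, 6.69 and 6.40 in the irradiated mice, against 6.57, 6.35 and 5.73 in the unirradiated mice. Its groups overlapped, and its difference was 0.27 (limma adjusted p = 0.438), against 7.16 for miR-29c.

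let-7a differs from let-7e by G9U, and had levels of 3.49, 3.57 and 3.40 in the irradiated mice, against 3.31, 3.31 and 3.34 in the unirradiated mice. The groups did not overlap, but the difference was 0.17 (limma adjusted p = 0.659), where that of let-7e was 6.90. miR-19b differs from miR-19a by U11C, and had levels of 6.44, 6.70 and 6.65 in the irradiated mice, against 7.25, 7.65 and 6.57 in the unirradiated mice. Its difference was -0.56 (limma adjusted p = 0.335), against 4.97 for miR-19a. let-7b, which differs from let-7c by A17G, had a difference of -0.80 against 2.92 for let-7c. The differences between relatives were not tested.

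**Figure D2:**
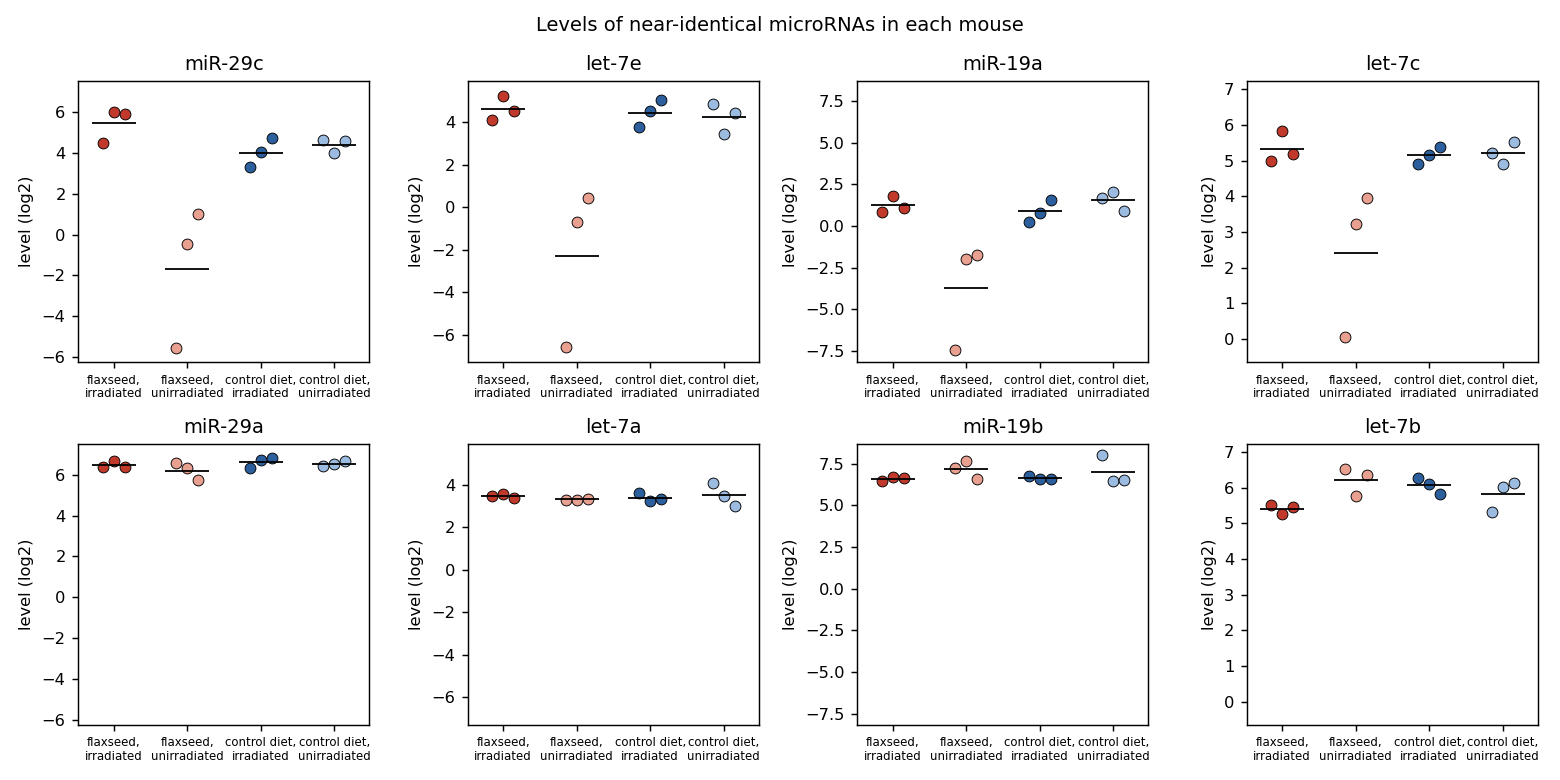
Levels (log2, relative to the mean of 260 assays) of 4 microRNAs that rose, in the upper row, and below each a relative that differs from it by 1 base. Points are mice and bars are group means, with the same axis for both members of a pair. The unirradiated flaxseed mice lie low for miR-29c, let-7e, miR-19a and let-7c, and near the other groups for miR-29a, let-7a, miR-19b and let-7b.

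Other families gave the following values. Among assays with the seed AUUGCAC, miR-25 differed by 4.13, miR-92 by -0.78 and miR-32 by -1.09. With the seed AGCAGCA, miR-195 differed by 3.27 and miR-497 by 0.93, and miR-16, miR-322, miR-15a and miR-15b by 0.03 to -0.54. miR-125a-5p differed by 3.05 and miR-125b by -0.63. In the miR-200 family, which keeps epithelial cells in their state, miR-429 differed by 2.66 and 4 assays of miR-200b and miR-200c by -0.65 to 0.40. With the seed AAAGUGC, miR-93 rose by 1.22 and miR-20b fell by 1.10.

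Values of both arms of a hairpin were also set side by side. For 9 of the assays that rose, a pool B assay named as another arm of the hairpin was set beside them, in 10 pairs. The pool B arms differed by -1.02 to -0.20, and 0 of 10 were called, beside 2.61% of all pool B assays called and 0% that rose. The arms were in different pools, and the difference between them was not tested. miR-29c# had levels of -5.14, -5.43 and -6.02 in the irradiated mice, against -5.06, -5.17 and -5.65 in the unirradiated mice. The groups overlapped, with a difference of -0.24 against 7.16 for miR-29c. miR-34c# had levels of 0.41, -0.01 and -0.14 in the irradiated mice, against 0.73, 0.63 and 0.01 in the unirradiated mice, a difference of -0.37 against 3.42 for miR-34c. miR-21# differed by -1.02, against 2.14 for miR-21. These 2 values rest on different unirradiated mice, since miR-21 had no Crt in mouse 11 and miR-21# none in mouse 13. The Crts of miR-21# were late, 25.82 and 27.06 in mice 11 and 12, against 27.54, 26.53 and 26.65 in the irradiated mice.

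**Figure D3:**
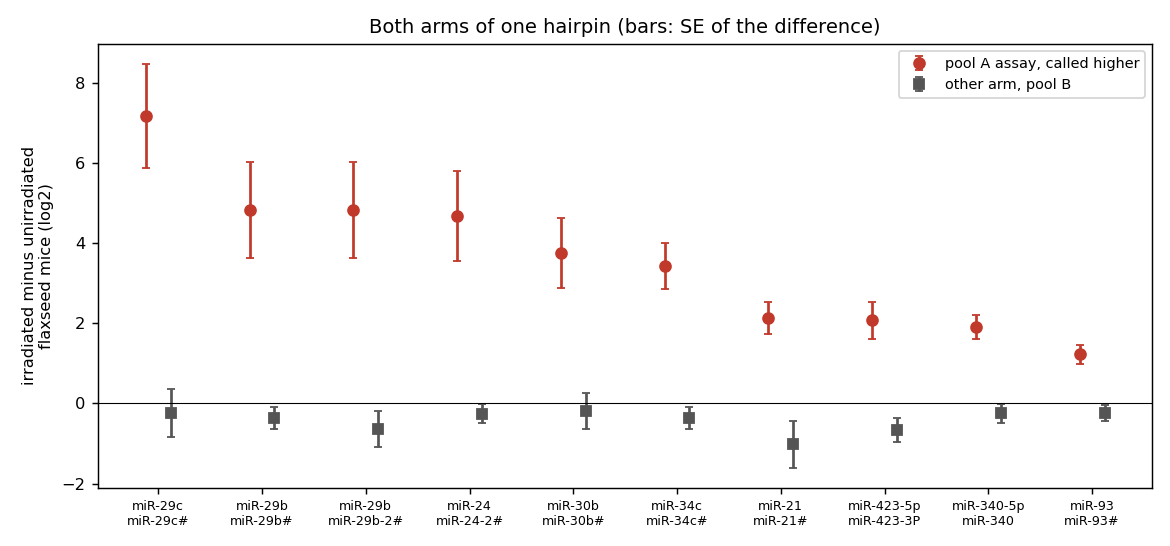
Difference of irradiated minus unirradiated flaxseed mice (log2, vertical axis) for pool A assays that rose (circles) and the other arm of the same hairpin in pool B (squares), with the SE of each difference. The circles lie between 1.22 and 7.16 and the squares between -1.02 and -0.20.

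Neighbours in the genome, by hairpin coordinates of RefSeq (GRCm38), also gave different values. On chromosome 14, 6 hairpins from miR-17 to miR-92 lie within 836 bases (115043671 to 115044506). miR-19a rose by 4.97, while miR-17, miR-18a, miR-20a, miR-19b and miR-92 differed by -0.58, -1.59, -0.66, -0.56 and -0.78, none called. On chromosome 5, within 498 bases, miR-25 rose by 4.13 and miR-93 by 1.22, and miR-106b differed by -0.45. On chromosome 17, within 692 bases, let-7e rose by 6.90 and miR-125a-5p by 3.05, while miR-99b fell by 0.63.

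On chromosome 13, miR-23b and miR-24 rose by 3.20 and 4.67, while miR-27b, between them, differed by -0.71. miR-27b was itself among the detection gains, with no Crt in mouse 12, and miR-23b was undetected in mouse 11. Their differences thus rest on different unirradiated mice. miR-34c rose by 3.42 and miR-34b-3p, 612 bases from end to end with it on chromosome 9, fell by 0.72. On chromosome 4, miR-429 rose by 2.66, miR-200b (pool A assay) fell by 0.65 and miR-200a differed by -0.33. On chromosome 19, miR-192 fell by 0.66, and miR-194 was the assay with no Crt in any unirradiated flaxseed mouse. In contrast, miR-29b and miR-29c rose together, and so did miR-195 and miR-497. miR-29b, miR-24, miR-19b, miR-92 and miR-194 can also come from a second hairpin, which these assays do not tell apart.

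**Figure D4:**
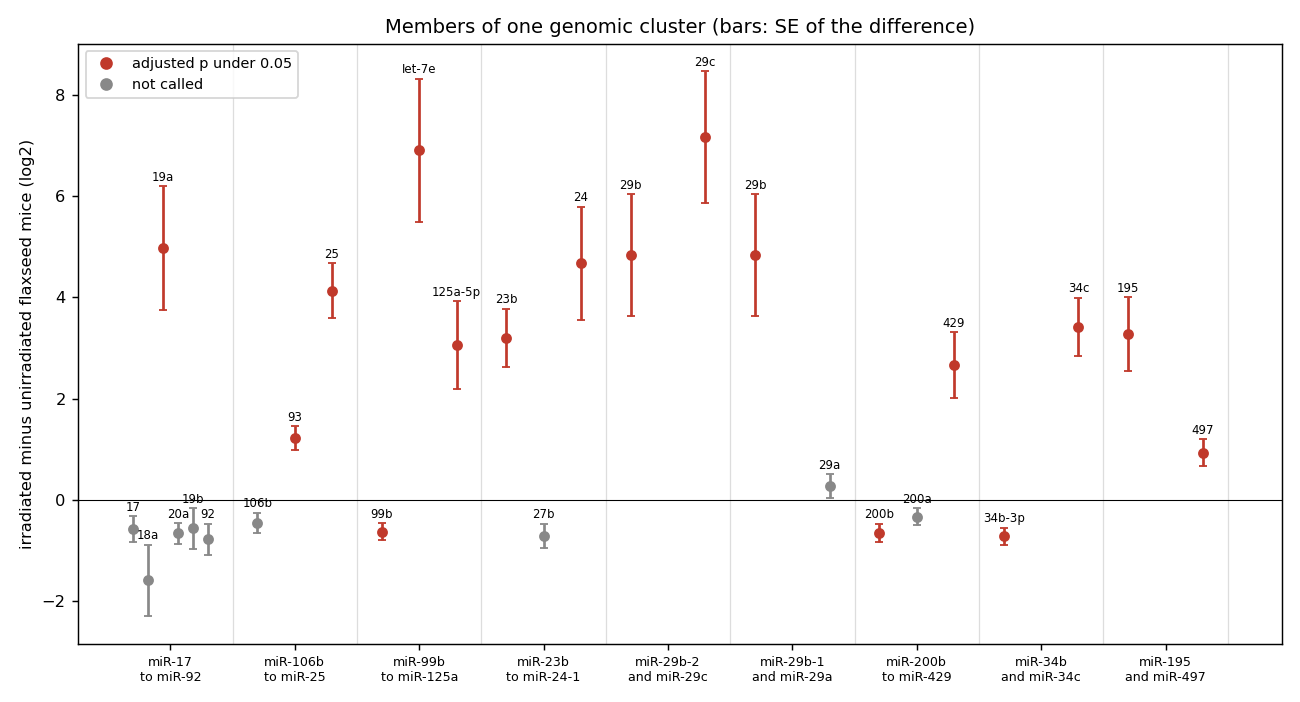
Difference of irradiated minus unirradiated flaxseed mice (log2) for assays whose hairpins lie in 1 genomic cluster, with the SE of each difference. Red points passed the adjusted p of 0.05, and miR-29b is drawn in both of its clusters. Within the miR-17 to miR-92 cluster, miR-19a lies at 4.97 and the other members at -1.59 to -0.56.

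The 18 assays that fell did so by small and even steps. miR-449b, a ciliated-cell microRNA in pool B, fell by 1.44 (limma adjusted p = 0.0477), with levels of -3.99, -4.43 and -4.00 in the irradiated mice, against -2.84, -3.13 and -2.15 in the unirradiated mice. miR-455 (pool A assay) had levels of -2.38, -2.22 and -2.18 in the irradiated mice, against -0.88, -1.19 and -0.57 in the unirradiated mice, and fell by 1.38 (adjusted p = 0.0152). The other assays that fell in pool B were miR-466a-3p, by 1.27, and miR-1198, by 0.68. Scaled within each primer pool, all 3 pool B calls were lost.

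In pool A, miR-672 had levels of -1.02, -1.38 and -1.13 in the irradiated mice, against -0.02, -0.08 and 0.03 in the unirradiated mice, and fell by 1.15 (limma adjusted p = 0.013). miR-410, of the Dlk1-Dio3 locus, had levels of -4.35, -4.36 and -4.20 in the irradiated mice, against -3.36, -3.27 and -2.96 in the unirradiated mice, and fell by 1.10 (adjusted p = 0.013). miR-375, an epithelial and neuroendocrine microRNA, had levels of 1.60, 1.63 and 1.64 in the irradiated mice, against 2.53, 2.42 and 2.53 in the unirradiated mice, and fell by 0.87 (adjusted p = 0.0207). Its spread was small in both groups, yet without normalization its difference was 0.00.

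The rest of those that fell were miR-184, miR-20b, miR-214 (pool A assay), miR-342-3p, miR-532-3p, miR-34b-3p, miR-411, miR-192, miR-361, miR-200b (pool A assay) and miR-99b, by 0.63 to 1.24. In 6 of the 18 the unirradiated flaxseed mice lay above all 9 others (19 of all 296), and in 5 the irradiated flaxseed mice lay below all 9 others (12 of all 296). Without mouse 11, 6 of the 18 were still called, and without mouse 13, 11.

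Counts in the following lists are to be read beside the 8.45% of all tested assays that rose and the 6.08% that fell, or 13.8% and 8.29% in pool A. Among 13 tested assays of p53-linked microRNAs, 1 rose (miR-34c) and 2 fell (miR-192 and miR-34b-3p), with a median difference of -0.37. miR-34a, a direct p53 target, had levels of 3.18, 2.98 and 3.08 in the irradiated mice, against 3.66, 3.66 and 3.46 in the unirradiated mice. The groups did not overlap, and its difference of -0.51 missed the threshold (limma adjusted p = 0.0661). Of 7 inflammation-linked assays, miR-21 rose and none fell (median 0.00). miR-146a, induced by NF-kappaB, differed by -0.50 (adjusted p = 0.198). miR-155, of activated lymphocytes and macrophages, had levels of -1.75, -0.33 and -0.83 in the irradiated mice, against 0.00, -0.34 and 9.33 in the unirradiated mice, so that mouse 13 alone set its difference of -3.97 (adjusted p = 0.261).

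Among 16 fibrosis-linked assays, 3 rose (miR-21, miR-29b and miR-29c) and 2 fell (miR-200b and miR-214), with a median of -0.25, equal to that of all assays. Of 10 assays linked to hypoxia and redox state, all in pool A, where 13.8% rose, 5 rose (miR-23b, miR-24, miR-28, miR-365 and miR-93) and none fell, with a median of 0.89. This list, like the others, was chosen with earlier results of these data known, so its count describes it and tests nothing. That list's best known member, miR-210, induced by low oxygen, differed by -0.30 (limma adjusted p = 0.353). Of 8 let-7 assays, let-7c and let-7e rose, with a median of 0.07. Of 12 tested assays of the Dlk1-Dio3 locus, none rose and miR-410 and miR-411 fell, with a median of -0.60, while 6 of its 16 measured assays (37.5%, against 14.4% of all 312) were among the detection gains. These were miR-136, miR-337, miR-379, miR-382, miR-409-3p and miR-494. miR-379, miR-382 and miR-409-3p had later Crts or none in every unirradiated flaxseed mouse. miR-136 and miR-337 were undetected in mouse 13 alone, and their levels differed by -0.86 and -0.31. miR-494 had Crts of 24.2 and 24.74 in irradiated mice 15 and 17, later than 22.77 in unirradiated mouse 11.

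Summed levels of cell type markers separated the flaxseed groups for 5 of 10 lists, 2 higher and 3 lower in irradiated mice, and single mice stood out in others. Over all tested assays, 15.5% were higher and 29.1% lower without overlap. Each sum treats its assays as equally efficient, is set mostly by its earliest assays, and takes an undetected reaction as nothing. Summed over assays on a linear scale, where the average assay is 1, the 4 myeloid assays came to 106 to 122 in irradiated flaxseed mice, against 209 in mouse 11 and 58.4 to 63.1 in mice 13 and 12. None of the 4 was called. miR-223, of neutrophils and macrophages, differed by -0.12 (assay 002295A) and 0.67 (assay 000526B), and miR-142-3p, of all blood cells, by -0.38. The red cell microRNA miR-451 had levels of -0.89, -1.16 and -1.28 in the irradiated mice, against 1.13, -2.61 and -1.23 in mice 11, 12 and 13. Mouse 11 was thus highest for both blood cell types among the flaxseed mice.

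The 4 lymphoid assays summed to 20.9 to 26.7 in irradiated mice, against 24.9 to 670 in unirradiated mice, the top value being mouse 13 with its miR-155. miR-342-3p fell by 0.92, and miR-150, of mature lymphocytes, differed by -0.80 (limma adjusted p = 0.0873). The 2 endothelial assays summed to 871 to 1350 in irradiated mice, against 451 to 700 in unirradiated mice, without overlap. Of these, miR-126# was called, and miR-126, the earlier assay with the larger part in the sum, was not. The 6 fibroblast assays summed to 33.0 to 39.3 in irradiated mice, against 45.0 to 63.0 in unirradiated mice, with 1 of 6 called (miR-214, fell). The 6 ciliated-cell assays summed to 31.6 to 34.9 in irradiated mice, against 42.7 to 53.2 in unirradiated mice, and miR-34c, which rose, was undetected in mouse 11. The 3 smooth muscle assays summed to 183 to 220 in irradiated mice, against 234 to 310 in unirradiated mice, and the 4 striated muscle assays to 12.8 to 18.4 in irradiated mice, against 6.8 to 11.4 in unirradiated mice, with none of these 7 called. The 10 epithelial assays summed to 181 to 206 in irradiated mice and 184 to 217 in unirradiated mice, where miR-429 rose and miR-200b and miR-375 fell. The part of cell makeup in these differences was not tested.

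Single markers of cell types gave the following values. miR-126, of endothelium, was detected in every mouse, with levels of 9.39, 9.83 and 9.39 in the irradiated mice, against 8.98, 9.25 and 8.52 in the unirradiated mice. miR-145, of smooth muscle, differed by -0.37, and the assays of miR-200c, of epithelium, by -0.38 (pool A) and 0.40 (pool B). miR-1, of striated muscle, differed by -0.08 (assay 002064A) and 0.76 (assay 002222A), none of these called.

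The difference with radiation was larger or smaller on flaxseed than on control diet for 25 assays in the interaction term of the same limma fit (8.45% of 296), 14 higher (4.73%) and 11 lower (3.72%). At an unadjusted p under 0.05 there were 86 (29.1%). Of the 43 assays called on flaxseed, 15 were also called there. The assays that rose on flaxseed differed on control diet by -0.96 to 0.60, with a median of -0.29. Both the flaxseed contrast and the interaction use the 3 unirradiated flaxseed mice. The interaction also cannot be told apart from whatever set the decimals of the deposited Crts, which follow the same pattern over the groups. The count was 0 without irradiated flaxseed mouse 18, without control-diet mouse 7 or 8, and when scaled to control RNAs (62 at an unadjusted p under 0.05 there, smallest adjusted p 0.0617). Leaving out mouse 17 gave 2 calls, mouse 12 gave 10, mouse 2 gave 12 and mouse 9 gave 15.

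**Figure D5:**
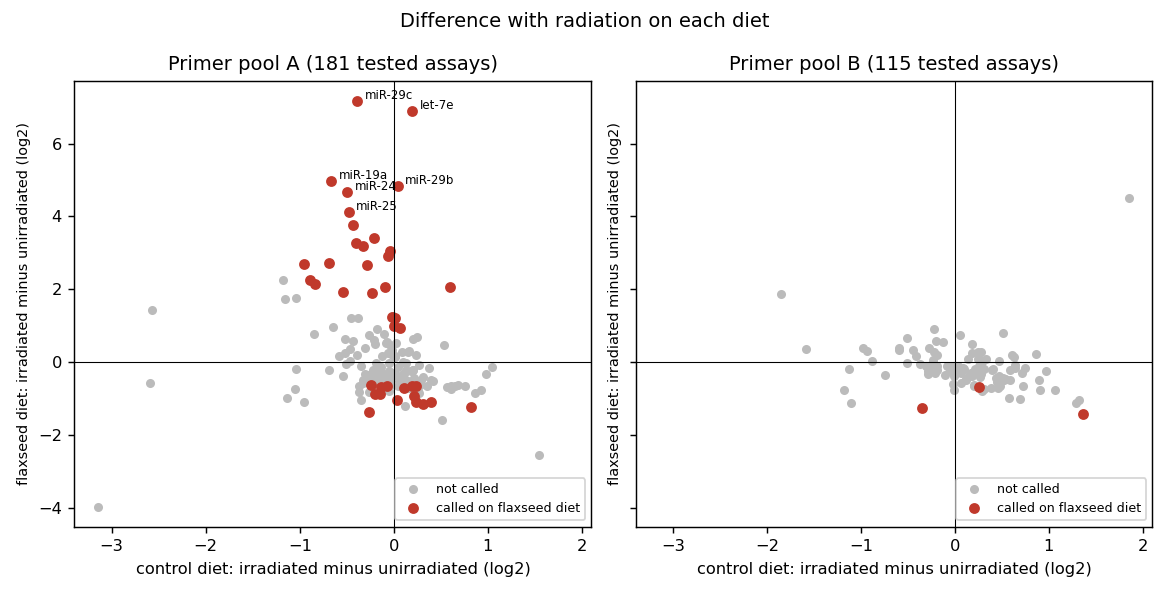
Difference with radiation on flaxseed diet (vertical axis, log2) against that on control diet (horizontal axis, log2) for each tested assay, by primer pool. Red points were called on flaxseed. In pool A a column of red points reaches 7.16 on the flaxseed axis at control-diet differences of -0.96 to 0.60, and pool B has 3 red points, all below 0.

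A difference between primer pools in the average shift was not shown. The gap between pools in mean Crt was 2.37, 2.75 and 2.49 cycles in the irradiated mice, against 1.78, 2.41 and 2.56 cycles in the unirradiated mice. These overlapped, with a difference of 0.29 cycles (exact two-sided permutation p = 0.5, n = 3 each). The median difference was -0.32 over pool A and -0.23 over pool B assays, but 20 pool A assays and 1 pool B assay were higher in irradiated mice by more than 2, and 2 pool A assays (miR-155 and miR-331-5p) lower by more than 2. The pool B assay, miR-1894-3P, had levels of 10.13, 8.62 and 9.10 in the irradiated mice, against 10.37, -1.55 and 5.49 in the unirradiated mice, and was not called (adjusted p = 0.332).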

How the data were processed

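Lung RNA of 12 mice (100 ng each, per the labels) was measured on TaqMan OpenArray plates. Crt values, a log2 scale running downward, were deposited by the authors for assays named by position. A second deposited table holds the authors' normalized values, also log2, with assay names. No source used here says how Crt was called. Names were carried over by matching each assay's rank within every mouse: of 326 assays with a Crt, 322 matched, and 316 of these stand at the place that alphabetical order of the names gives. The other 4, with 40 values, were left out.

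Each mouse's mean Crt over 260 microRNA assays detected (Crt below 28) in all 12 mice was used for scaling. Assays detected in at least 2 mice of each group (296) were fitted with limma 3.58.1 (R 4.3.3) as 4 group means over 12 mice, undetected reactions being missing (36 assays), with Benjamini-Hochberg adjustment over 296 assays. Detection and pool gaps were compared by exact permutation tests in SciPy 1.17.1. The fit was tested on simulated data. Arrays carry no read depth, so their number limits precision. The labels name each mouse separately, and cages or batches are not given.

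The rule for microRNAs named in the text took the calls with the largest difference (at most 15 that rose and 15 that fell), all pool B calls, assays detected in 3 mice of 1 flaxseed group and at most 1 of the other, the first 10 interaction calls, called and some other members of each list, and a fixed set of microRNAs known in lung or radiation biology. Members and lists were chosen with earlier results of these data known. Alternatives covered scaling, Crt limits, missing values, the fit and leaving out mice. A fit without mouse 11 and scaled within each pool was added after seeing the data.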

Additional observations from a re-analysis of the deposited data

Results flagged for a closer look

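The difference between irradiated and unirradiated mice was unlike on the 2 diets for 25 assays, by the interaction term of the limma fit (Benjamini-Hochberg adjusted p under 0.05). The decimals of the deposited Crts follow the same pattern over the groups, so whatever set them and the interaction cannot be told apart. Values are the log2 difference with radiation on flaxseed minus that on control diet, and a positive one means a higher difference on flaxseed. The 14 positive ones were miR-29c at 7.55, miR-25 at 4.61, miR-712 at 3.72, miR-193b at 3.66, miR-34c at 3.62, miR-23b at 3.52, miR-28 at 3.42, miR-467a at 3.14, miR-21 at 2.98, miR-126# at 2.47, miR-340-5p at 2.14, miR-30a-3p at 1.36, miR-93 at 1.24 and miR-421 at 1.23. The 11 negative ones were miR-449b at -2.80, miR-1903 at -2.42, miR-26b# at -2.36, miR-184 at -2.05, miR-136 at -1.73, miR-410 at -1.50, miR-672 at -1.46, miR-345-5p at -1.33, miR-503 at -1.31, miR-345-3p at -1.26 and miR-214# at -1.01.

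Among the 25, miR-25, miR-34c, miR-23b, miR-467a and miR-21 were undetected in mouse 11, and miR-1903 and miR-136 in mouse 13. The values of those assays rest on 2 unirradiated flaxseed mice. Of the 25, 10 were not called on flaxseed alone. miR-26b# differed by -1.04 on flaxseed and 1.32 on control diet, and miR-503 by -0.63 and 0.68, each missing the threshold on both diets. For miR-421, reported as a repressor of the DNA damage kinase ATM, the flaxseed difference was 0.30 and the control-diet difference -0.93.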

How the results depend on the processing

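Calls on flaxseed diet (43) depended on scaling, on the fit and on single mice. They were 20 when scaled to control RNAs, 0 in a fit of the compared groups alone, 65 with no Crt limit, 78 at an adjusted p under 0.10 and 25 without mice 11 and 13. Leaving out each mouse gave 9 to 49 calls. Interaction calls (25) were 0 when scaled to control RNAs, 7 with the authors' normalized values, 16 with a Crt limit of 30 or none, 14 with assays detected in all 12 mice, 9 with undetected reactions set to 28 and 60 at an adjusted p under 0.10, and 0 to 31 without each mouse. Control-diet calls (0) were 0 to 2 without each mouse, and 0 otherwise. At a Crt limit of 26, 2 assays of pool A and 3 of pool B were lost. Gains in pool B (16) were 10 with a limit of 30 or none, and 6 to 16 without each mouse. The median difference of all assays moved from -0.25 to -0.04 with control RNAs and 0.61 with no normalization.

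All 25 assays that rose stayed positive under every alternative in which they were tested, and each lost its call in 1 to 19 of up to 30 alternatives. With no normalization 0 of the 18 that fell were still called, and miR-532-3p came to 0.00. These turned positive, though miR-375 rounds to 0: miR-192 0.21, miR-200b (pool A) 0.22, miR-361 0.22, miR-375 0.00, miR-411 0.18, miR-99b 0.24, miR-1198 0.19 and miR-34b-3p 0.15. So did uncalled let-7b 0.07, miR-150 0.07, miR-142-3p 0.49, miR-145 0.50, miR-146a 0.37, miR-200c (002300A) 0.49, miR-210 0.57, miR-223 (002295A) 0.75, miR-34a 0.36, miR-451 0.67, miR-503 0.24 and miR-1 (002064A) 0.79. The cause was the missing scaling. Leaving out 1 mouse at a time, uncalled miR-223 (002295A) ranged from -0.55 to 0.47, miR-451 from -1.06 to 0.81, miR-142-3p from -0.66 to 0.02 and miR-1 (002064A) from -0.51 to 0.26. Under other settings miR-223 (002295A) was 0.07 with control RNAs, 0.28 with the authors' values, 0.11 with mouse weights and 0.73 with mice 11 and 13 left out. miR-451 was 0.09 with the authors' values, 0.22 with mouse weights and 1.5 with mice 11 and 13 left out. miR-1 (002064A) was 0.12 with control RNAs. With mouse 11 left out and scaling within pools, a setting chosen after seeing the data, miR-223 (002295A) was 0.45, miR-451 0.79, and miR-142-3p and miR-1 (002064A) 0.00. Why these turned was not tested. No paired analysis was possible because mouse numbers are not shared between groups. With 3 mice a group, permutation p could not go below 0.1.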
